A study of Mus musculus with 66 samples.

Results

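Transcript levels of 9 genes that write, read out or remove the Polycomb mark on histone H3, or hold together the complexes that write the Trithorax mark, were followed through muscle differentiation. The genes were Ezh1, Ezh2, Eed, Suz12, Jarid2, Kdm6a, Kdm6b, Ash2l and Wdr5. They were chosen by name, with earlier results of these data known, as 9 of the 22489 genes in the mRNA-Seq table. All 9 passed the filter of a mean of at least 1 FPKM. By definition FPKM is a level per transcript length and per mapped fragment of the library. None of the 9 is itself an H3K4 methylase, so the Trithorax side is represented here by Ash2l and Wdr5, which are shared subunits of those enzymes. The H3K4 methylases were read as a separate list.

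C2C12 is a mouse myoblast line that fuses into myotubes when serum is withdrawn. The 20 libraries came from 10 cultures of it in 2 states: growth, in medium with 20% fetal bovine serum, and differentiated, 48 h after confluent cells were moved to 2% horse serum. WT cells carried no GFP-tagged H3 gene. The other 9 were Tet-On lines, each with 1 N-terminally GFP-tagged H3 gene under a doxycycline-inducible promoter, and each line is named here by that gene. Per the methods these lines were stably transfected, selected in doxycycline and G418 and sorted for GFP, and the paper calls them stable clones without giving the number of clones per variant. By amino acid sequence, 3 of the tagged proteins are of the H3.1/H3.2 type (H3.1, H3.2 and H3t) and 6 are of the H3.3 type (H3.3 itself, H3mm7, H3mm11, H3mm12, H3mm13 and H3mm16). Each line had 1 library per state, so the lines served as the replicates of a state and p-values measure the spread between lines.

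Polycomb repressive complex 2 (PRC2) methylates lysine 27 of histone H3 and keeps developmental genes silent. Its catalytic subunit is either Ezh2, which is abundant in dividing cells, or its paralog Ezh1, and both need Eed and Suz12 for activity. In myoblasts PRC2 is known for holding muscle genes silent until differentiation. Kdm6a (UTX) and Kdm6b (JMJD3) take the mark off, and COMPASS-type complexes, with Ash2l and Wdr5 in their core, methylate lysine 4 of H3 at active genes.

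The promoter letters of the members were searched for E2F elements, since E2F factors are known to drive genes of dividing cells, among them Ezh2. The motif was any of TTTCCCGC, TTTCGCGC, TTTGCCGC and TTTGGCGC on either strand, in RefSeq windows from 250 bases before to 50 bases after the start site, and 2.26% of 32851 such windows held it. The motif was chosen with the expression values known. There were 8 windows for 7 of the 9 members, none for Kdm6b and Ash2l, and each was placed at a single position of mm9 by an exact match. A match was found in 2 of the 7 genes, Ezh2 and Suz12. They are shown, with the motif in capitals, as the only matches among the members. Both genes were lower after differentiation, and so were Eed and Wdr5, whose windows held no match.
Ezh2: ttgctgcgTTTGGCGCtcggtccg
Suz12: cccctcatTTTCCCGCgaattcag
The Ezh2 stretch is chr6:47545011-47545034 on the minus strand of mm9. It spans the RefSeq start site, its motif begins 3 bases after that site, and it overlaps exonic 5′-UTR in 4 of the 5 GENCODE vM1 Ezh2 transcripts found there. The Suz12 stretch is chr11:79806381-79806404 on the plus strand, with its motif beginning 219 bases before the start site, where the annotation has no gene. The windows of Ezh1, Jarid2 and Kdm6a held no match either. The cell cycle element TTTGAA, present in 17.9% of all windows, was in those of Eed and Suz12, and the E-box CAGCTG, bound by myogenic factors and present in 16.3%, was in 1 Jarid2 window. No binding was measured, so a match describes the letters alone.

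The libraries fitted their labels. After differentiation 22 of 22 tested muscle differentiation genes rose, with a median difference of 7.19 on the log2 scale, and 24 of 24 proliferation genes fell, with a median of -3.81, against a median of 0.04 over all 10954 genes tested. Myoblast genes were present in growth, with Myod1 at a mean of 39.0 FPKM and Des at 283 FPKM, except Pax7, which averaged 0.19 FPKM. Myod1 varied widely between the growing GFP-H3 lines, from 1.61 to 110.1 FPKM, and Msc was low in them, at 0.96 to 2.57 FPKM. Of the 7 myoblast genes tested, 2 rose, 3 fell and 2 were not called. Of 12 markers of fat, bone, blood, endothelial, epithelial and neural cells, 9 had a median below 1 FPKM, the other 3 fell, and the mean log2 level of the list ranged from 0.74 to 1.24 in growth and from 0.38 to 0.75 in differentiated cells. The best expressed of them was Tubb3, which fell from 103 to 28.5 FPKM. The sum of FPKM over all genes ranged from 409319 in growing WT cells to 894105 in differentiated H3mm7 cells. Read numbers are unknown, so no counting error could be given for any value. WT stood apart over all genes, since its deviations from the state means correlated between its 2 libraries with r = 0.877, against 0.273 to 0.475 in the GFP-H3 lines, and the paper's text names the read mapping for the GFP-H3 lines only.

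Growing and differentiated cells were compared first, which asks how the Polycomb and Trithorax genes changed as myoblasts became myotubes. Of the 9 genes, 8 were called at an adjusted p below 0.05, with Ezh1, Kdm6a and Kdm6b higher and Ezh2, Eed, Suz12, Ash2l and Wdr5 lower in differentiated cells. Jarid2 was not called. Without WT the same 3 were higher and the same 5 lower. The background was high, since 58.6% of all genes were called, 30.5% higher and 28.1% lower, so a call alone was common to most genes. Only Ezh1 and Ezh2 also differed by at least 1 on the log2 scale, which 17.3% of all genes did (8.87% higher and 8.41% lower). With 0.01 FPKM in place of 1 FPKM added before the logarithm, 2348 genes passed that rule, 3 of them members, with Kdm6b at 1.0. The states did not overlap for 4 of the 9 genes, Ezh1, Ezh2, Kdm6a and Kdm6b, against 17.6% of all genes (8.85% higher and 8.74% lower). All differences below are on the log2(FPKM + 1) scale, differentiated minus growth, and each adjusted p is from limma, by the Benjamini-Hochberg procedure over all genes. In bulk libraries fewer cells with a transcript and less transcript per cell cannot be told apart.

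**Figure D1:**
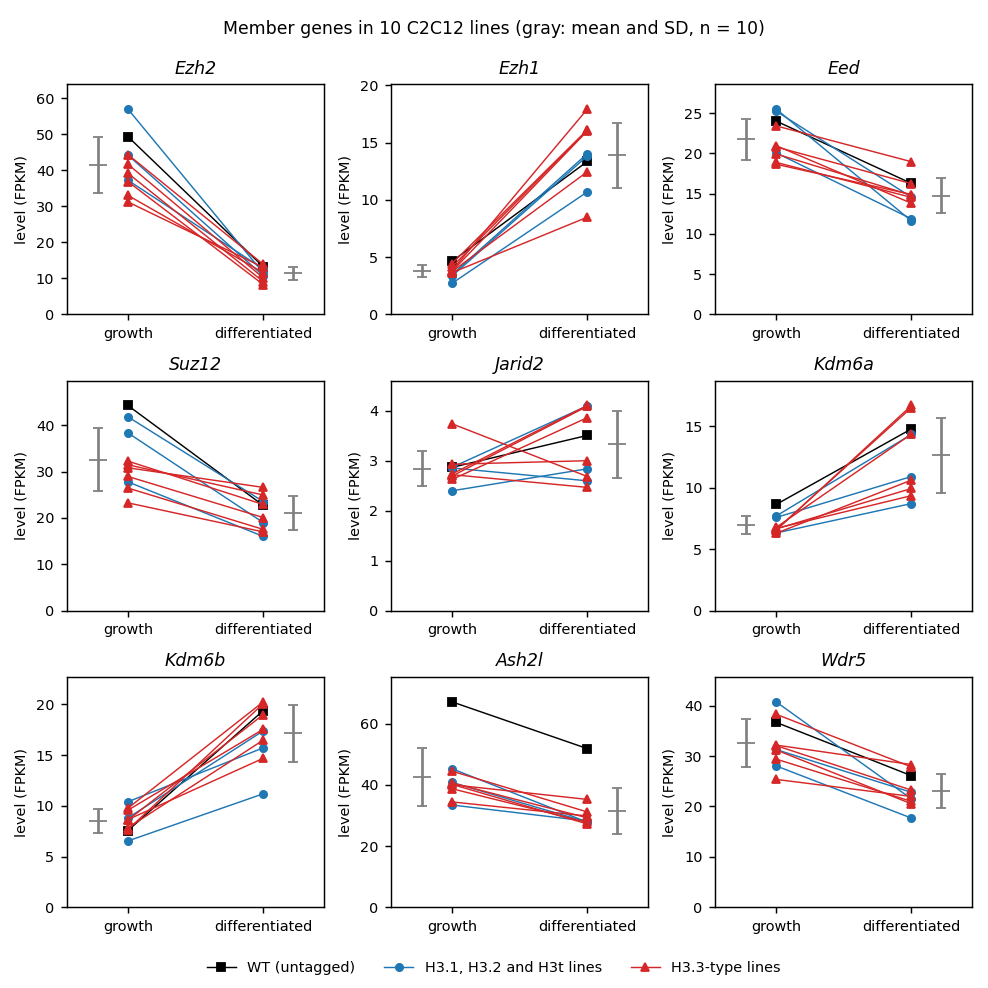
Level in FPKM (y axis, from 0) of each of the 9 genes in growing and differentiated cells, with 1 line per C2C12 line joining its 2 libraries and the mean and SD over 10 lines in gray. Every line falls for Ezh2 and rises for Ezh1, and WT (black squares) stands above all other lines for Ash2l in both states.

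Ezh2, the catalytic subunit of cycling cells, had its lowest growth level, 31.2 FPKM, in the H3mm7 line, a median of 40.4 FPKM and its highest, 57.0 FPKM, in the H3t line. In differentiated cells it lay between 8.30 FPKM in H3mm12 and 13.9 FPKM in H3mm11, with a median of 11.6 FPKM. The lowest growing library was thus still above the highest differentiated one. The mean fell from 41.4 ± 7.74 to 11.4 ± 1.85 FPKM (SD, n = 10), a difference of -1.77 (SE 0.11, adjusted p = 1.43e-11). The fold decrease was smallest in H3mm7, 2.39-fold, and largest in H3t, 4.94-fold, with a median of 3.91-fold. WT cells lay inside this range at 3.73-fold.

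Ezh1, the paralog that also serves non-dividing cells, moved the other way. Its growth level ran from 2.72 FPKM in H3.1 over a median of 3.76 FPKM to 4.64 FPKM in WT, and its differentiated level from 8.49 FPKM in H3mm7 over a median of 13.9 FPKM to 17.9 FPKM in H3mm16. All 10 differentiated libraries were above all 10 growing ones. The mean rose from 3.78 ± 0.55 to 13.9 ± 2.84 FPKM (SD, n = 10), a difference of 1.62 (SE 0.11, adjusted p = 5.59e-11). Its fold increase, with a median of 3.91-fold, was again smallest in H3mm7, at 2.33-fold, and largest in H3mm16, at 4.68-fold.

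The pair therefore changed in composition. Ezh2 made up 89.2% (H3mm12) to 94.5% (H3t) of the summed Ezh1 and Ezh2 FPKM in growth, with a median of 91.4%. In differentiated cells its share was 34.0% in H3mm12, 36.1% in H3mm16, 36.2% in H3mm13, 43.4% in H3.2, 45.4% in H3t, 46.4% in H3mm11, 48.2% in H3.3, 49.8% in WT, 54.1% in H3.1 and 60.6% in H3mm7. Ezh1 was the more abundant of both transcripts in 8 of the 10 differentiated libraries, and H3.1 and H3mm7 were the exceptions. The ratio of Ezh2 to Ezh1 went from a median of 10.7 to a median of 0.85. The sum of both transcripts fell less than Ezh2 alone did, from 45.2 ± 7.81 to 25.3 ± 2.39 FPKM (SD, n = 10).

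**Figure D2:**
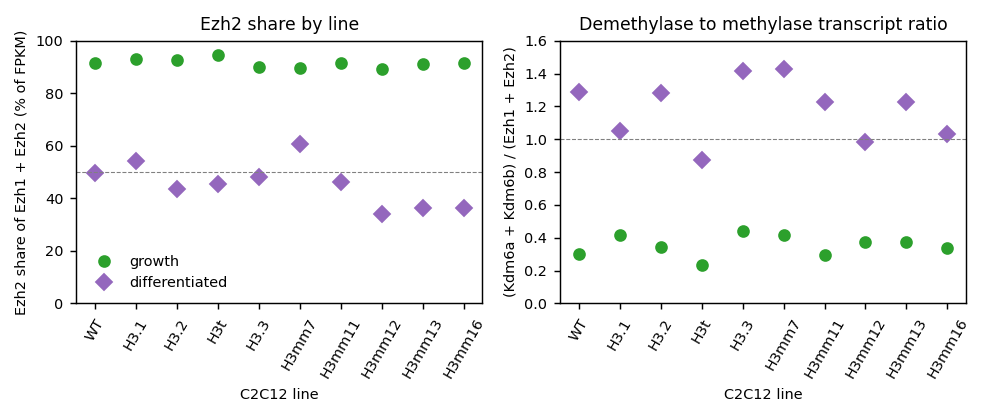
Left, the Ezh2 share of the summed Ezh1 and Ezh2 FPKM (%) in each line, in growth (circles) and after differentiation (diamonds), with a dashed line at equal amounts. Right, the summed Kdm6a and Kdm6b FPKM divided by the summed Ezh1 and Ezh2 FPKM, with a dashed line at 1. The growth values sit between 89.2% and 94.5% on the left and between 0.23 and 0.44 on the right, and every differentiated value lies below that range on the left and above it on the right.

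The noncatalytic core fell less than Ezh2. Eed, which binds methylated H3K27 and stimulates the enzyme, ranged from 18.7 FPKM (H3mm7) over a median of 20.9 FPKM to 25.5 FPKM (H3t) in growth and from 11.6 FPKM (H3t) over 14.7 FPKM to 19.0 FPKM (H3mm11) after differentiation. The states overlapped through the H3mm11 line, whose differentiated library lay above the lowest growing ones. The difference was -0.53 (SE 0.09, adjusted p = 1.95e-05), and Eed was lower in 10 of 10 lines, by 1.24-fold in H3mm11 to 2.20-fold in H3t.

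Suz12, the scaffold of the complex, ranged from 23.3 FPKM (H3.3) over a median of 31.1 FPKM to 44.2 FPKM (WT) in growth and from 16.03 FPKM (H3.1) over 21.4 FPKM to 26.6 FPKM (H3mm11) after differentiation. Here too the states overlapped while each line fell, by 1.16-fold in H3mm11 to 2.02-fold in H3.2. The difference was -0.60 (SE 0.12, adjusted p = 0.000185). A lower level in all 10 lines, or a higher one in all 10, was found for 44% of all genes.

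Jarid2, a substoichiometric partner that helps PRC2 find its targets, was the least abundant of the 9 in both states. It ranged from 2.40 FPKM (H3.1) over a median of 2.79 FPKM to 3.74 FPKM (H3mm7) in growth and from 2.47 FPKM (H3.3) over 3.25 FPKM to 4.10 FPKM (H3mm12) after differentiation. It was higher after differentiation in 7 of 10 lines, and lower in H3.2, H3.3 and H3mm7. The difference of 0.16 (SE 0.09, 95% interval -0.03 to 0.35, adjusted p = 0.141) did not pass the threshold. Without H3mm7, its highest growing library, it was 0.22 with an adjusted p of 0.0453, so 1 line decided that call.

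Both H3K27 demethylases rose. Kdm6a ranged from 6.30 FPKM (H3mm13) over a median of 6.67 FPKM to 8.64 FPKM (WT) in growth and from 8.71 FPKM (H3.1) over 12.6 FPKM to 16.7 FPKM (H3mm11) after differentiation. The lowest differentiated library was only just above the highest growing one. The difference was 0.74 (SE 0.11, adjusted p = 7.08e-06), with fold increases of 1.38 in H3.1 to 2.55 in H3mm11.

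Kdm6b ranged from 6.53 FPKM (H3t) over a median of 8.61 FPKM to 10.4 FPKM (H3.1) in growth and from 11.2 FPKM (H3t) over 17.5 FPKM to 20.2 FPKM (H3mm13) after differentiation, again without overlap. The difference was 0.92 (SE 0.10, adjusted p = 6.82e-08), and the fold increases ran from 1.51 in H3.1 to 2.62 in H3mm11. Summed over both demethylases the level went from 15.5 ± 0.95 to 29.8 ± 4.87 FPKM (SD, n = 10). Relative to the summed Ezh1 and Ezh2 transcripts this was a ratio of 0.23 to 0.44 in growth and of 0.87 to 1.43 after differentiation, above 1 in 8 of 10 lines. These are ratios of transcripts, and neither protein nor the H3K27 mark was measured in these libraries.

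The Trithorax-side subunits fell by small amounts. Wdr5, the scaffold that holds the catalytic subunit, ranged from 25.4 FPKM (H3.3) over a median of 31.7 FPKM to 40.8 FPKM (H3t) in growth and from 17.7 FPKM (H3.1) over 22.4 FPKM to 28.3 FPKM (H3mm7) after differentiation. The states overlapped, yet it was lower in each of the 10 lines, by 1.14-fold to 1.90-fold. The difference was -0.48 (SE 0.10, adjusted p = 0.000206).

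Ash2l, which stimulates the methylase together with Rbbp5, was led by WT cells in both states, at 67.1 FPKM in growth and 51.8 FPKM after differentiation. The 9 GFP-H3 lines lay between 33.4 and 45.3 FPKM in growth and between 27.2 and 35.2 FPKM after differentiation. WT after differentiation was thus still above every growing GFP-H3 line, although it fell 1.30-fold like the others. The difference over 10 lines was -0.42 (SE 0.12, adjusted p = 0.0058), and without WT it was almost the same, -0.42 (adjusted p = 5.43e-05). WT stood apart over all genes, as given above. With 1 WT library per state this distance between WT and the tagged lines could not be tested, and the transgene cannot be told apart from any other difference between WT and the tagged lines.

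Because FPKM is a level per length, the genes could also be ranked among each other. In growth the order of mean levels was Ash2l, Ezh2, Wdr5, Suz12, Eed, Kdm6b, Kdm6a, Ezh1 and Jarid2. The neighbours Ash2l and Ezh2, Wdr5 and Suz12, and Kdm6b and Kdm6a differed by less than 1 SD of their difference over lines. After differentiation the order was Ash2l, Wdr5, Suz12, Kdm6b, Eed, Ezh1, Kdm6a, Ezh2 and Jarid2, so Ezh2 went from the second place to the second from the bottom. The levels had drawn together, and of the neighbours only Ash2l and Wdr5, Kdm6b and Eed, and Ezh2 and Jarid2 differed by more than 1 SD.

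Among the other PRC2 subunits, 1 of 6 rose, 2 fell and 3 were not called, with a median difference of -0.12 against 0.04 over all genes. Of all genes 30.5% were called higher and 28.1% lower. Phf19, a Polycomb-like subunit that binds methylated H3K36, fell from 3.43 to 0.43 FPKM (-1.62, SE 0.14, adjusted p = 2.37e-09). Its level after differentiation was below the 1 FPKM added before the logarithm, which makes the difference smaller than the ratio of means. Its relative Phf1 rose from 5.88 to 10.3 FPKM (0.74, SE 0.14, adjusted p = 0.000103), and the third of that family, Mtf2, stood at 6.36 and 5.94 FPKM (adjusted p = 0.726). Rbbp7, a histone chaperone shared with other complexes, fell from 138 to 76.6 FPKM (-0.85, SE 0.09). Its near-identical relative Rbbp4 stood at 90.5 and 100.1 FPKM (adjusted p = 0.333). Aebp2, a zinc finger cofactor, stood at 45.8 and 40.8 FPKM (adjusted p = 0.178).

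The H3K4 methylases moved little. Of the 7 genes in this list, Mll3 rose from 2.51 to 3.27 FPKM (0.28, SE 0.10, adjusted p = 0.0266) and Wbp7 fell from 5.57 to 4.09 FPKM (-0.37, SE 0.09, adjusted p = 0.00187). The other 5 were not called. Mll1 had a difference of -0.26, Mll2 of -0.22, Setd1a of -0.21, Setd1b of -0.18 and Ash1l of 0.10, with adjusted p between 0.0554 and 0.385. Ash1l is counted in this list although its main target is H3K36. Wbp7 is the table's name for Kmt2b. The symbol Mll2 has been used for more than 1 gene of this family. Since Kmt2b has its own row, the Mll2 row was read as Kmt2d and is given under the name in the table.

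Of 11 further COMPASS subunits none rose, 7 fell and 4 were not called, with a median of -0.51. Of all genes 58.6% were called, 30.5% higher and 28.1% lower. The largest falls were those of Dpy30, a core subunit that partners Ash2l, from 131 to 68.4 FPKM (-0.93, SE 0.13), of Psip1, a chromatin tether of the Menin complexes, from 38.0 to 19.7 FPKM (-0.91, SE 0.10), and of Hcfc1, a subunit of Setd1 complexes and a cell cycle regulator, from 26.7 to 15.0 FPKM (-0.80, SE 0.10). Among 5 H3K4 demethylases Kdm5b rose from 2.43 to 8.63 FPKM (1.49, SE 0.10, adjusted p = 9.1e-11) and Kdm5a from 6.01 to 8.05 FPKM (0.36, SE 0.09, adjusted p = 0.00192), and the other 3 were not called.

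PRC1, the complex that ubiquitinates H2A and binds the PRC2 mark, was mixed. Of 21 subunits 8 rose, 6 fell and 7 were not called, with a median of 0.12. Calls were thus about as common as among all genes, of which 58.6% were called, 30.5% higher and 28.1% lower. Rybp, of the noncanonical complexes, rose from 11.03 to 22.3 FPKM (0.94, SE 0.16), the ligase subunit Ring1 from 8.64 to 13.5 FPKM (0.58, SE 0.13) and Pcgf1 from 8.14 to 11.9 FPKM (0.48, SE 0.19). The chromodomain subunit Cbx2 fell from 9.10 to 4.06 FPKM (-1.02, SE 0.11), Phc2 from 76.0 to 37.4 FPKM (-0.996, SE 0.11) and L3mbtl2 from 19.3 to 9.62 FPKM (-0.96, SE 0.09).

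**Figure D3:**
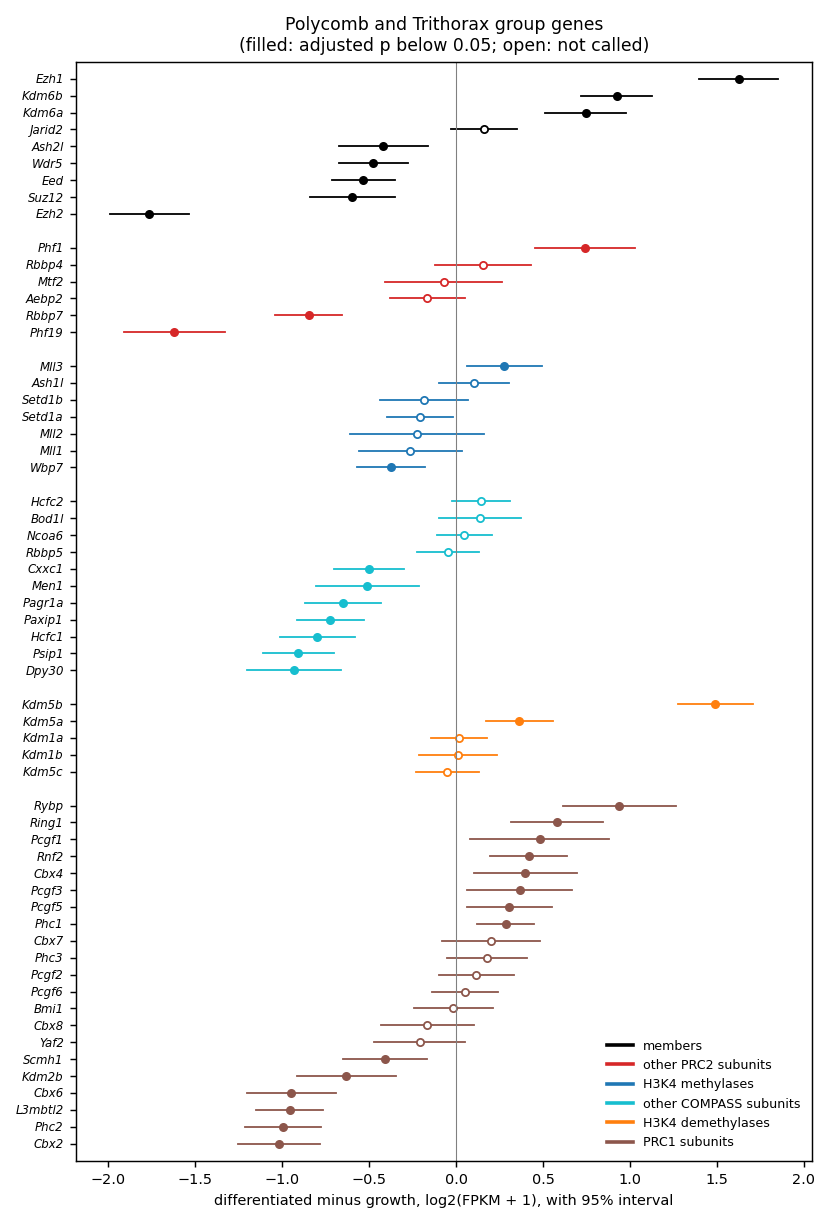
Difference between differentiated and growing cells on the log2(FPKM + 1) scale (x axis) with its 95% interval for the 9 genes (black) and 5 further lists (colors), 10 libraries per state. Filled points passed an adjusted p of 0.05. On this scale Ezh1 and Ezh2 lie at 1.62 and -1.77, farther from 0 on their sides than any other gene shown. The 1 FPKM added before the logarithm shrinks differences of genes with low levels, among them Phf19 at -1.62.

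Ezh2 was set beside the proliferation genes over lines, since it is known to follow the cell cycle. Across the 10 growing libraries Pearson's r between Ezh2 and the mean of the 24 genes was 0.09 (permutation p = 0.807, adjusted over both states 0.807) and Spearman's rho was 0.0061 (permutation p = 1.0, adjusted 1.0). Across the 10 differentiated libraries r was 0.34 (two-sided permutation p = 0.327, adjusted 0.654) and rho was 0.18 (permutation p = 0.631, adjusted 1.0). Without the 2 lines farthest from the median of the proliferation mean, r was -0.07 in growth and 0.62 in differentiated cells. In growth r was -0.48 without the H3t line and 0.49 without WT, so it rested on single lines. The scale decided it too, since after each library was rescaled to the same total, an alternative chosen after seeing the data, r was 0.90 in growth (permutation p = 0.00196) and 0.64 in differentiated cells (permutation p = 0.0445). That rescaling divides Ezh2 and the proliferation genes by the same total, 409319 in growing WT cells against 617396 to 680017 in the other growing lines. A small total raises both together, so r after rescaling cannot tell a relation of the genes from the shared total. Within a state no relation was therefore shown on the deposited scale, whereas Ezh2 and all 24 genes fell between the states.

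The H3.3-type lines were compared with the H3.1/H3.2-type lines to ask whether the kind of overexpressed H3 went with the level of its modifiers. No member was called in either state, by limma over 18 libraries. In growth 0.247% of all genes were called and the adjusted p of the members ran from 0.614 to 0.997. None had an unadjusted p below 0.05, which 9.45% of all genes had. The spread in this test was shared by both states, so p in growth also rests on the differentiated libraries. Ezh1 had an SE of 0.17. Its log2 SDs in H3.1/H3.2-type and H3.3-type lines were 0.14 and 0.087 in growth and 0.20 and 0.37 after differentiation. A fit to the growth libraries alone was not made. Ezh2 averaged 37.7 FPKM in the 6 H3.3-type lines and 46.2 FPKM in the 3 others (-0.27, 95% interval -0.62 to 0.07), and Suz12 28.9 and 36.0 FPKM (-0.30, interval -0.65 to 0.06). For Ezh1 alone among the members the types did not overlap. It lay at 3.65 to 4.44 FPKM in H3.3-type lines and at 2.72 to 3.48 FPKM in the others. The share of all genes without overlap between types was not counted. The Ezh1 difference was 0.24 (interval -0.12 to 0.60). These intervals leave room for differences of either sign. Outside the members, Myog was called, at 12.8 FPKM in H3.3-type and 1.5 FPKM in H3.1/H3.2-type lines (2.565, adjusted p = 0.0245). It was the only gene called among 20 tested muscle differentiation genes.

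In differentiated cells 2.5% of all genes were called, again no member, with adjusted p from 0.204 to 0.858. The lowest belonged to Eed, at 15.5 FPKM in H3.3-type and 12.7 FPKM in H3.1/H3.2-type lines (0.27, 95% interval 0.02 to 0.52), whose unadjusted p was 0.0332. It was the only member under 0.05 without adjustment, as were 20.1% of all genes. With libraries rescaled to the same total, which moved the median of all genes to -0.26, the Eed difference was 0.00014. Kdm6b stood at 17.99 and 14.8 FPKM (0.28, interval -0.03 to 0.60, adjusted p = 0.3). Of the 24 proliferation genes 5 were called, all lower in H3.3-type lines, with a list median of -1.08. Whether such differences between the lines bear on the members was not tested. The difference between the 2 contrasts was called for no member and for none of 10931 genes, of which 999 (9.14%) had an unadjusted p below 0.05. Eed again had the smallest p among the members (0.47, 95% interval 0.12 to 0.82, unadjusted p = 0.0121, adjusted p = 0.455). With the line as a replicate block 3 genes were called, none of them a member.

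**Figure D4:**
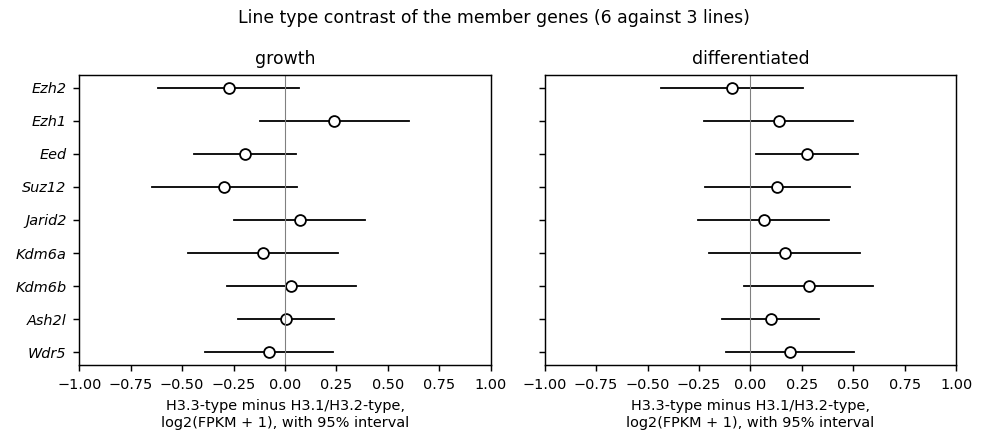
Difference between 6 H3.3-type and 3 H3.1/H3.2-type lines on the log2(FPKM + 1) scale (x axis) with its 95% interval for each of the 9 genes, in growth (left) and after differentiation (right). All points are open because none was called, and the Eed interval on the right, 0.02 to 0.52, is the only one that leaves out 0.

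Levels also varied between single lines. Kdm6a in differentiated cells was 16.7 FPKM in H3mm11, 16.5 in H3.3, 14.8 in WT, 14.4 in H3mm7 and 14.3 in H3.2, and then 10.9 in H3t, 10.6 in H3mm13, 9.94 in H3mm16, 9.36 in H3mm12 and 8.71 in H3.1. No library lay between 10.9 and 14.3 FPKM, and both types of H3 were on either side of that gap. Jarid2 was nearly the reverse, at 4.10 FPKM in H3mm12, 4.09 in H3t, 4.09 in H3mm16, 3.86 in H3mm13 and 3.50 in WT, and then 2.998 in H3mm11, 2.84 in H3.1, 2.68 in H3mm7, 2.60 in H3.2 and 2.47 in H3.3. The lines also differed in 12 ER stress genes, of which 10 rose after differentiation. Their mean log2 level was 8.61 in H3mm7, 8.60 in H3.3, 8.25 in H3.2 and 8.10 in H3mm11, against 7.08 in H3mm13, 6.55 in H3mm16, 6.33 in WT, 6.04 in H3.1, 5.80 in H3t and 5.68 in H3mm12. The 4 lines with the highest ER stress mean were thus among the 5 with the most Kdm6a and were 4 of the 5 with the least Jarid2, while WT had high Kdm6a with a low ER stress mean. These lines were picked out by their values, so no test was made, and the part of ER stress in either gene was not tested.

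**Figure D5:**
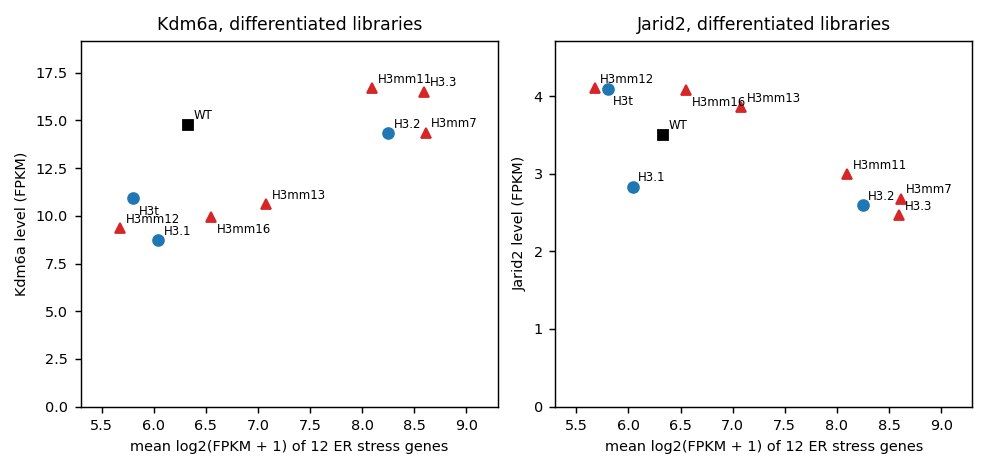
Kdm6a (left) and Jarid2 (right) in FPKM (y axis, from 0) in the 10 differentiated libraries against the mean log2(FPKM + 1) of 12 ER stress genes (x axis), with WT as a square, H3.1, H3.2 and H3t as circles and H3.3-type lines as triangles. H3.2, H3.3, H3mm7 and H3mm11 stand apart on the right, with Kdm6a of at least 14.3 FPKM and Jarid2 of at most 2.998 FPKM.

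H3mm7 combined several of the extremes. Among differentiated libraries it had the least Ezh1, at 8.49 FPKM, the largest Ezh2 share and the largest sum of FPKM over all genes. Among growing libraries it had the least Ezh2 and the most Jarid2. Its muscle gene mean was the highest in growth, at 2.17 on the log2 scale against a median of 1.32. The H3.1 line, the other one with more Ezh2 than Ezh1 after differentiation, had the highest proliferation mean there, 4.08 against a median of 2.67. Whether these levels bear on the Ezh1 and Ezh2 values was not tested.

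The genes most like each member over the 20 libraries were found by Pearson's r of log2(FPKM + 1), given as a description since all libraries share the 2 states. Nearest to Ezh2 were Uba2 (r = 0.993), the mitotic kinesin Kif18a (0.988) and the chromatin remodeler Hells (0.988). Nearest to Ezh1 were Ccpg1 (0.986), Klhl24 (0.983) and Fbxl20 (0.980). Eed was most like Exosc2 (0.935) and Suz12 most like Lin7c (0.944). Kdm6a was most like Slc33a1 (0.966), Kdm6b most like Prpf40b (0.969), Ash2l most like Mphosph6 (0.945) and Wdr5 most like Prpf4 (0.946). Jarid2 had the loosest match, Glul (0.824).

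With the mean of each state subtracted, which leaves the differences between lines, Uba2 was still among the 3 genes most like Ezh2 (0.884), behind Msantd2 (0.895). Jarid2 was then most like Fbxo32 (0.885), a ubiquitin ligase of muscle atrophy, Foxo4 (0.821) and Glul (0.808). Kdm6a was most like Mettl9 (0.913) and the aminoacyl-tRNA synthetase genes Lars (0.910) and Farsb (0.900). Ezh1 was most like Amotl1 (0.912) and Suz12 most like Pkn2 (0.924). Among the members themselves Ezh2 and Ezh1 had r = -0.95, Ezh2 and Eed 0.884 and Ezh2 and Suz12 0.821 over the 20 libraries with the states included, and -0.27, 0.506 and 0.495 with the state means subtracted.

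The loci are given in mm9 with GENCODE vM1. Ezh2 is at chr6:47480273-47545340 (minus), Ezh1 at chr11:101052429-101087777 (minus), Eed at chr7:97103166-97129493 (minus) and Suz12 at chr11:79806608-79847625 (plus). Jarid2 is at chr13:44824843-45017012 (plus), Kdm6a at chrX:17739701-17857062 (plus), Kdm6b at chr11:69212010-69227177 (minus), Ash2l at chr8:26926663-26958166 (minus) and Wdr5 at chr2:27370677-27392055 (plus). Exons of 3 members overlap those of a gene on the other strand, by 174 bases for Ezh2 and Gm17629, 178 bases for Suz12 and Gm16706 and 286 bases for Kdm6b and 1700064E03Rik. The use of strand in counting is not stated in the sources used here, so reads of either gene cannot be told apart there.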

How the data were processed

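mRNA-Seq libraries of 10 C2C12 lines in 2 states were used, 20 in all, grouped by the state and line in their labels. The authors mapped reads to mm9 with TopHat (TopHat2 2.0.8 in the submitters' processing notes) and deposited FPKM values made with cuffdiff (Cufflinks 2.0.1, default settings). The paper's text names this mapping for the GFP-H3 lines. The column named H3mmT was taken as H3t. By its definition FPKM is scaled to each library's mapped fragments, which would let a few very abundant transcripts lower all others. In the deposited values the median-of-ratios size factors lay between 0.984 and 1.042, although the sums of FPKM ran from 409319 to 894105. Most genes were thus not shifted between libraries, and such a lowering was not seen. Read numbers are unknown. The 3′-seq tables, which list histone genes, and ChIP-seq were not used here.

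From the deposited FPKM, log2(FPKM + 1) was computed, and genes with a mean of at least 1 FPKM were tested with limma 3.58.1 (trend and robust settings, R 4.3.3), adjusted by Benjamini-Hochberg over all genes and called below 0.05. The state comparison had 10 libraries against 10. Line types were compared over 18 GFP-H3 libraries, 6 lines against 3 in each state, with 1 shared spread and an interaction. Correlations over lines used two-sided permutation tests with 100000 resamples in scipy 1.17.1, adjusted over the 2 states. Alternatives were a pseudocount of 0.1 or 0.01, no filter or a mean of at least 5 FPKM, median-of-ratios scaling, limma without both settings, the line as a block, leaving out each line and, added after seeing the data, rescaling each library to the same total. Both libraries of a line come from the same cell line, and their deviations from the state means correlated with r of 0.273 to 0.475 in the GFP-H3 lines and 0.877 in WT, each of 10 lines best with itself. The code was tested on simulated data.

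The members and gene lists were chosen with earlier results of these data known. Named genes were the members, all genes of the lists of other PRC2 subunits and H3K4 methylases, at most 3 called genes per direction with the largest difference from each further list, and the 3 genes most like each member, of which some are printed. Tubb3, Myod1, Msc, Des and Pax7 were named as markers, and Myog as the muscle gene called between line types in growth. Promoter windows are those of RefSeq, placed in mm9 by exact match. Python 3.11.15, numpy 2.4.6, pandas 2.3.3 and matplotlib 3.10.9 were used.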

Additional observations from a re-analysis of the deposited data

Results flagged for a closer look

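The highest and lowest library of each member in each state were compared with the rest of their group, 18 groups of 10 libraries in all, by the gap to the nearest library divided by the range of the group, on the log2(FPKM + 1) scale, against Dixon's critical value for 10 samples. Chance passes about 1 in 20 groups, and 3 of 18 passed. Ash2l in WT cells stood above the 9 GFP-H3 lines in growth (67.1 FPKM, gap 0.567 of the log2 range) and after differentiation (51.8 FPKM, gap 0.602 of the log2 range). WT also stood apart from the tagged lines over all genes. Jarid2 in growing H3mm7 cells stood above the other lines (3.74 FPKM, gap 0.563 of the log2 range), and the call of Jarid2 between the states changed without that line.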

How the results depend on the processing

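Between the states, 160 of 161 values of members under an alternative kept their direction and their side of the threshold. These values are not independent, since the runs share libraries. Dropping the filter leaves a member's difference as it is, and median-of-ratios scaling divides by factors of only 0.984 to 1.042. Both could therefore change little. The exception among the 161 was Jarid2 without H3mm7 (0.22, adjusted p = 0.0453). With the line as a replicate block 8 members were called, 3 higher and 5 lower, as without it, and 8 were called without WT. Members called between line types numbered 0 in every alternative run. The number of all genes called between types in growth was 27, and it was 56 and 81 with a pseudocount of 0.1 and 0.01 and 16 with a mean of at least 5 FPKM. It was 2 without H3.1, 9 without H3.2, 7 without H3t, 13 without H3.3, 14 without H3mm7, 7 without H3mm13 and 6 without H3mm16, so it ran from 2 to 28 over the lines left out. In differentiated cells it was 273, and it was 140 with no filter, 149 with a 5 FPKM minimum and 1786 after rescaling to the same total. It ran from 8 to 772 over the lines left out, with 8 without H3.1, 772 without H3.2, 27 without H3t, 63 without H3.3, 47 without H3mm11, 86 without H3mm13 and 94 without H3mm16. The interaction called 0 genes, 5 with no filter, 1 with a mean of at least 5 FPKM, 1 after rescaling, 3 with the line as a replicate block and 0 to 2 over the lines left out, with 2 without H3.2. The cause of these moves was not tested.

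Rescaling to the same total moved the median of all genes to -0.26 for the type contrast in differentiated cells and to -0.22 for the interaction, and with it uncalled values of members turned sign. In differentiated cells these were Ezh1 (-0.14), Suz12 (-0.15), Jarid2 (-0.17), Kdm6a (-0.11), Ash2l (-0.19) and Wdr5 (-0.0895), in growth Ash2l (-0.022), and in the interaction Ezh2 (-0.068), Kdm6b (-0.00041) and Ash2l (-0.17). Over the lines left out, uncalled values in growth ran from -0.11 to 0.10 for Ash2l, from -0.13 to 0.17 for Kdm6b and from -0.19 to 0.072 for Wdr5, in differentiated cells from -0.036 to 0.22 for Jarid2, and in the interaction from -0.138 to 0.111 for Jarid2, from -0.0043 to 0.22 for Ash2l and from -0.17 to 0.015 for Ezh1. Pearson's r between Ezh2 and the proliferation genes in growth was 0.90 after rescaling, which divides both by the same library total. It ran from -0.48 (without H3t) to 0.49 over the lines left out. In differentiated cells it was 0.64 after rescaling and ran from 0.20 to 0.65. Read numbers are unknown, so the precision of single values rests on the spread between lines alone.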
